A study of Homo sapiens with 2 samples.

Results

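Integrins, laminins and collagens are the receptors and structural chains through which cells hold on to the extracellular matrix, and their transcripts were examined in CL1-0, a cell line that was established from a human lung adenocarcinoma. Members were all probe sets annotated to a single gene whose symbol is that of a numbered integrin alpha chain or ITGAV, of ITGB1 to ITGB8, of a laminin alpha, beta or gamma chain, or of a collagen chain. This gave 195 of 54675 probe sets and 72 of 19775 genes, namely 19 integrin, 10 laminin and 43 collagen genes. The choice used gene names and no measured value, but it was made with earlier results of these data known. ITGB6 was named on the array only by probe sets shared with a second gene and is no member.

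The data were 2 Affymetrix arrays, 1 of cells given an antibody to FSTL1, a secreted glycoprotein of the follistatin family, for 0 h and 1 of cells given it for 6 h. The labels' protocol states puromycin selection and stable transduction for both samples without naming what was transduced. With 1 array per time there is no spread between replicates and no test, and no array of cells kept for 6 h without the antibody was analysed here, so antibody, time and handling cannot be told apart. The number of arrays limits the precision. How far different probe sets of a gene lie apart shows scatter between probe sets read on the same 2 arrays. It does not measure the error between cultures or arrays, and these sets are no replicates.

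An integrin is a membrane receptor of 1 alpha and 1 beta chain, and the pairing decides which ligand it binds. Laminins are trimers of an alpha, a beta and a gamma chain, and together with type IV collagen they build the basement membrane under epithelia. Collagens are triple helices. The fibrillar types form the fibres of connective tissue, the type IV chains form a network, and the fibril-associated types sit on fibre surfaces. In lung adenocarcinoma these molecules are studied for their part in adhesion and invasion.

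Chains of a collagen trimer can also be neighbours in the genome, and the type IV genes lie in head-to-head pairs transcribed away from a common stretch of DNA. The stretch between the starts of COL4A1 and COL4A2 and the windows before the starts of COL4A5 and COL4A6 are printed because both genes of the first pair were above background and only COL4A5 of the second pair was. The sequences are from RefSeq (GRCh38.p14), 5′ to 3′ on the strand given, with capitals marking GC boxes (GGGCGG or CCGCCC) and CCAAT boxes (CCAAT or ATTGG).
COL4A1-COL4A2 interval, chr13:110307158-110307283, plus strand (the strand of COL4A2): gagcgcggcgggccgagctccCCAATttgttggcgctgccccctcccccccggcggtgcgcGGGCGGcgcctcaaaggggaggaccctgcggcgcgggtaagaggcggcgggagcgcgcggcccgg
COL4A5, chrX:108439588-108439837, plus strand: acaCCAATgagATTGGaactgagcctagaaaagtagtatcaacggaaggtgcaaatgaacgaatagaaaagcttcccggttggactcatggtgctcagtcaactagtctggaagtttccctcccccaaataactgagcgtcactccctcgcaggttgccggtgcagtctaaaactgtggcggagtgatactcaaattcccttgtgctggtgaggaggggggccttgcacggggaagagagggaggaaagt
COL4A6, chrX:108439459-108439708, minus strand: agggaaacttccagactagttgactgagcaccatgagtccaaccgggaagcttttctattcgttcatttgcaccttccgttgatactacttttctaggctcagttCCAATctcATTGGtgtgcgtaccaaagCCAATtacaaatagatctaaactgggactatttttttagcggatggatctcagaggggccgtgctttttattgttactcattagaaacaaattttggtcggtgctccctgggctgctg

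The starts of COL4A1 (minus strand) and COL4A2 (plus strand) lie 126 bases apart in the RefSeq table, and that interval is 80.2% G and C, with 1 GC box and 1 CCAAT box. Over the 126 bases before all 35116 starts of the table, the median G and C content is 60.3%, 34.6% hold a GC box and 21.1% a CCAAT box on either strand. The COL4A5 and COL4A6 starts lie 379 bases apart, so that their 250-base windows share 121 bases. The COL4A5 window holds 2 CCAAT boxes, the COL4A6 window 3, and neither holds a GC box. The 2 boxes of the COL4A5 window lie in the shared bases and are counted again, on the other strand, among the 3 of COL4A6. Of all windows of 250 bases, 42.6% hold a GC box and 32.0% a CCAAT box. COL4A6 has 2 starts in the table and the first listed is shown. None of the 3 stretches holds the letters TATAAA on either strand, which 10.7% of all 250-base windows and 5.87% of all 126-base windows do. A match is a description of letters and not of a bound factor. Windows were found for 52 of the 72 genes.

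Values are probe set intensities on a linear scale. An intensity of 45.4, the median of all values of both arrays, served as a floor that stands for background, and a gene counted as measured when a probe set was above it on at least 1 array. Differences are log2 intensity at 6 h minus 0 h with lower values set to the floor, and a gene is represented by its measured probe set with the highest mean. The brightness of a probe set depends on its probes, so intensities are set between arrays and not between genes.

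CL1-0 cells had 40 of the 72 genes above the floor, which is 55.6%, where 64.1% of all genes on the array were. In RNA from a whole culture, fewer cells with a transcript and less of it per cell cannot be told apart. Measured were 14 of 19 integrins, 5 of 10 laminins and 21 of 43 collagens. Of the 40, 13 were at least 4 times above the floor on both arrays: ITGA6, ITGAV, ITGB1, ITGB5, LAMA5, LAMB2, LAMC1, LAMC3, COL4A1, COL4A2, COL4A5, COL5A2 and COL6A1. This limit was set after the values were seen, and 63.7% of all measured genes passed it. A further 17 members, or 42.5%, stayed under 2 times the floor on both arrays, where 20.2% of all measured genes did. Of these, ITGA10, ITGB2, COL9A1 and COL20A1 passed the floor at 0 h alone, so that their direction follows from the way they passed. Over all measured genes 4.77% passed on 1 array alone.

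**Figure D1:**
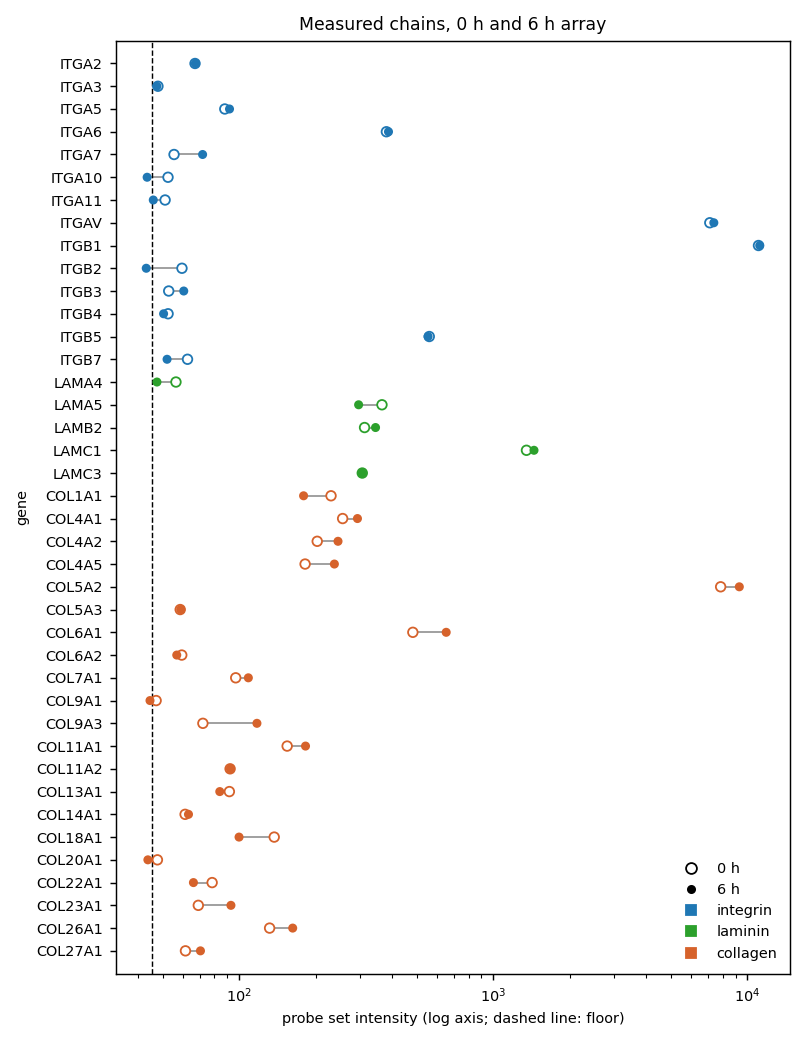
Intensity (log axis) of the representative probe set of each of the 40 measured genes on the 0 h array (open circles) and the 6 h array (filled circles), coloured by family, with the floor of 45.4 as a dashed line. ITGAV, ITGB1 and COL5A2 lie above 5000 on both arrays, and COL9A3 has the widest gap between its circles.

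Of the integrin beta chains, ITGB1, the common partner of most alpha chains, had an intensity of 11083 at 0 h and 11209 at 6 h. Its other 2 measured probe sets went from 2881 to 2987 and from 4637 to 4848, and all 3 differed by 0.02 to 0.06 on log2. The other 4 of its 7 probe sets were below the floor on both arrays. The 3 measured sets of ITGB1 thus lay close together. In either direction, 90.5% of all 8071 genes that passed 4 times the floor differed by at least as much as its representative set. ITGB5, which pairs with ITGAV to bind vitronectin, went from 560.6 to 554.4, while its other measured sets differed by -0.16 and 0.11.

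The other beta chains lay close to the floor. ITGB3, the partner of ITGAV in the classical receptor for osteopontin and vitronectin, was at 52.8 and 60.5. A second set of ITGB3 passed the floor at 6 h alone (31.2, then 48.2). ITGB4, which with ITGA6 anchors hemidesmosomes to laminin, was at 52.5 and 50.4. ITGB7, a chain of lymphocyte homing receptors, was at 62.6 and 52.0. The leukocyte chain ITGB2 passed the floor on 1 of its 3 probe sets and at 0 h alone (59.6, then 43.1). ITGB8, whose pair with ITGAV binds latent TGF-β, was below the floor on all 5 probe sets, with a highest value of 29.1.

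Among the alpha chains, ITGAV, the partner of several beta chains in receptors for RGD-containing ligands, was at 7129 at 0 h and 7394 at 6 h on its single probe set, a log2 difference of 0.05. ITGA6, a laminin receptor chain, was at 380.0 and 387.4, with 0.03 and 0.11 for its 2 sets. The sign of the representative sets of ITGB1 and ITGA6 was not settled. That of ITGB1 was negative after centring (-0.001) and quantile normalization (-0.0009), and that of ITGA6 after quantile normalization (-0.03) and loess (-0.02).

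The fibronectin receptor chain ITGA5 was at 87.8 and 91.7. The collagen receptor chain ITGA2 was at 67.1 and 67.3, and the laminin receptor chain ITGA3 at 47.9 and 47.5, next to the floor. ITGA7, a laminin receptor chain best known from muscle, had the highest difference of the integrins, from 55.4 to 71.8 (0.37) on 1 of its 2 probe sets. ITGA11 and ITGA10, both collagen receptor chains, went from 51.1 to 45.9 and from 52.5 to 43.4, the latter at least 1.16-fold lower. ITGA1, ITGA4, ITGA8 and ITGA9 were below the floor on all of their probe sets, with highest values of 20.1, 14.2, 26.3 and 35.6.

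Of 18 known heterodimers, 11 had both chains measured and 10 had both above the floor on both arrays. The pair of ITGAV with ITGB6 could not be counted as measured. Pairs with alpha chains outside the choice, such as ITGAE and ITGA2B, were not among the 18. Both chains were at least 4 times above the floor for ITGA6 with ITGB1, ITGAV with ITGB1 and ITGAV with ITGB5. Transcripts of both chains do not show that the receptor is on the surface.

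Of the integrins, 7 were higher and 7 lower at 6 h, with a median difference of -0.005 against 0.02 over all 12669 measured genes. Without ITGA10 and ITGB2, which passed the floor at 0 h alone, 7 were higher and 5 lower (median 0.01), so the sign of the median is not settled. The 4 that passed 4 times the floor differed by -0.02 to 0.05. None of the 14 was 1.5-fold apart, where 0.75% of all genes were at least 1.5-fold higher and 0.182% at least 1.5-fold lower.

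LAMC1, the gamma chain of most laminin trimers, was at 1353 at 0 h and 1448 at 6 h, with 0.10 and 0.02 for its 2 probe sets. LAMB2, the beta chain of neuromuscular and kidney basement membranes, was at 311.8 and 344.4. LAMA5, the main laminin alpha chain of adult epithelia, was at 365.1 at 0 h and 295.5 at 6 h, a log2 difference of -0.31 on its single probe set. Of the 8071 genes that passed 4 times the floor, 1.40% were lower by at least as much and 7.52% differed by as much in either direction. LAMA5 thus stood at the low end of the laminins and of these genes. It kept this sign under each scaling tried, but these scalings act on the same 2 intensities. Its probe set is an _s_at set, and without _x_at and _s_at sets LAMC1 was the 1 laminin left.

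LAMC3, a gamma chain of less common trimers, was at 305.4 and 305.3 on 1 of its 2 sets. LAMA4, an alpha chain typical of vessels and muscle, was at 56.4 and 47.5 on 1 of 5 sets. LAMA1, LAMA2, LAMB1, LAMB3 and LAMB4 were below the floor on all of their probe sets, with highest values between 15.4 (LAMB4) and 37.5 (LAMB3). Of 9 laminin trimers, LAMA5 with LAMB2 and LAMC1 and LAMA4 with LAMB2 and LAMC1 had every chain measured, the first with every chain at least 4 times above the floor. Another 2 of the 9 contain LAMA3, which was not analysed here.

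The type IV network collagens were higher at 6 h on their representative sets. COL4A1 went from 255.6 to 292.4 (0.19) and COL4A2 from 203.0 to 245.1 (0.27), the pair whose common interval is printed above and whose chains assemble into the usual basement membrane trimer. The second measured set of COL4A1 went the other way, from 62.4 to 58.0 (-0.11), and the second set of COL4A2 was below the floor (27.6 and 35.9). COL4A5 went from 181.9 to 237.2 (0.38), with its other set below the floor. Of the 8071 genes, 16.1%, 8.24% and 2.76% were higher by at least as much as COL4A1, COL4A2 and COL4A5. In either direction, 22.6%, 10.6% and 3.27% differed by as much. COL4A6, which shares its upstream stretch with COL4A5, was below the floor on all 3 sets (at most 16.3). So were COL4A3 on 7 sets (at most 22.6) and COL4A4 on 3 (at most 17.7), chains that with COL4A5 form the network of kidney and alveolar basement membranes.

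Among the fibrillar collagens, COL5A2, a chain that helps to set fibre diameter, went from 7866 to 9316 on one probe set and from 4570 to 5546 on the other. The log2 differences were 0.24 and 0.28, the closest agreement among the collagens with a difference of this size. Of the 8071 genes, 10.4% were higher by at least as much as the representative set of COL5A2. In either direction, 13.6% differed by as much. A limit of 5000 on both arrays was set after the values were seen. Of the 493 genes above it, 10 genes, or 2.03%, were higher by at least as much as COL5A2. Its usual partner COL5A1 was below the floor on all 3 sets (at most 40.6). COL5A3 was at 58.6 and 58.9 on one set and at 58.9 and 46.3 on the other. COL11A1, of the same fibre family, went from 154.6 to 182.6 on one measured set (0.24) and differed by 0.04 on the other. COL11A2 was at 92.2 and 92.4, with -0.05 on its other set.

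COL1A1, the main chain of the most abundant fibrous collagen, had the strongest disagreement between probe sets of all members. Its representative set went from 230.1 to 179.4 (-0.36) and a second set from 112.3 to 215.6 (0.94, or 1.92-fold). The other 3 of its 5 sets were below the floor on both arrays. Its partner COL1A2 was below the floor on all 3 sets (at most 28.6), as was COL3A1 on 5 sets (at most 19.2). A direction for COL1A1 is therefore not shown. COL27A1 was at 61.5 and 70.4 on its representative set, with differences from -0.10 to 0.20 over 3 sets. COL2A1 and COL24A1 were below the floor.

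COL6A1, a chain of the beaded filaments around cells, went from 483.0 to 653.5 (0.44) on its representative set. Of the 8071 genes, 1.64% were higher by at least as much and 1.90% differed by as much in either direction. The other 2 measured sets of COL6A1, both above the floor at 0 h alone, went from 53.2 to 44.1 and from 53.2 to 39.3. The other 5 sets were below the floor. The direction of these 2 sets follows from the way they passed, and the representative set is the 1 set of COL6A1 above the floor on both arrays. COL6A2, its partner, was at 59.5 and 56.8 with -0.34 on its other set, and the third chain COL6A3 was below the floor (12.9 and 20.4). COL6A5 and COL6A6 were below it too. COL7A1, which forms the anchoring fibrils under epithelia, went from 97.0 to 108.7, and its 2 sets differed by 0.17 and 0.11.

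COL9A3, a fibril-associated chain best known from cartilage, had the highest difference of the members and was the 1 gene past 1.5-fold. It went from 72.0 to 117.5, or 1.63-fold, on its single probe set, and was past 1.5-fold under each alternative that kept that set. This is 2.50% of the 40 genes against 0.75% of all genes, and a single gene carries no statement on the family. Of its partners, COL9A1 passed the floor at 0 h alone (47.1, then 44.6) and COL9A2 was below it. COL14A1 was at 61.3 and 63.2, COL22A1 at 78.3 and 66.1, and COL20A1 at 47.7 and 43.7. COL12A1, COL16A1, COL19A1 and COL21A1 of the same class were below the floor.

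COL18A1, the basement membrane collagen that is the source of endostatin, had the lowest difference of the representative sets, from 137.5 to 99.9 (-0.46). Its second set was at 111.0 and 113.8 (0.04), so its sets did not move together. The membrane collagen COL23A1 went from 69.1 to 92.9 (0.43) on its single set. COL13A1, also a membrane collagen, was lower on both measured sets, from 91.5 to 83.9 and from 75.5 to 56.5. COL26A1 went from 131.8 to 162.5, with -0.18 on a set that was above the floor at 0 h alone. COL8A1, COL8A2, COL10A1, COL15A1, COL25A1 and COL28A1 were below the floor.

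Over the 21 measured collagens, 14 were higher at 6 h and 7 lower (median 0.17), where 54.3% of all measured genes were higher. Without COL9A1 and COL20A1, which passed the floor at 0 h alone, 14 were higher and 5 lower (median 0.19). Moving the floor to the 40th percentile gave a median of 0.04, and moving it to the 60th gave 0.24. It was 0.15 after centring, 0.14 after quantile normalization and 0.14 after loess, but 0.04 where a gene took the middle value of its sets and 0.006 for all 43 genes with no floor. Of 9 known combinations of different collagen chains, COL4A1 with COL4A2 had every chain measured. Collagens built from 1 kind of chain were not among the 9. Of all 40 members, 23 were higher and 17 lower (median 0.01). Without the 4 above the floor at 0 h alone, all of which were lower, 23 were higher and 13 lower (median 0.04). Of all genes above the floor on both arrays, 55.0% were higher (median 0.02). After centring on the median of all genes, 19 of the 40 were higher and 21 lower (median -0.006), and after quantile normalization 21 were higher and 19 lower. None of the 40 was 1.5-fold lower. None was 2-fold apart, where 0.0316% of all genes were at least 2-fold higher and 0.00789% at least 2-fold lower.

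**Figure D2:**
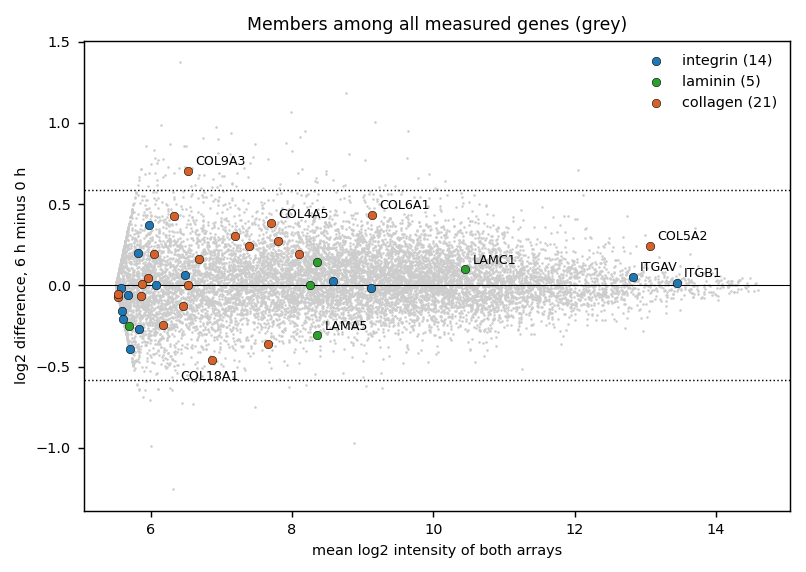
Log2 difference (6 h minus 0 h) against the mean log2 intensity of both arrays for all 12669 measured genes (grey) and the 14 integrins, 5 laminins and 21 collagens, with 1.5-fold as dotted lines. COL9A3 is the member beyond a dotted line, and COL5A2, at 0.24, lies in the upper part of the bright genes while ITGB1 and ITGAV lie near 0.

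Probe sets of one gene often disagreed. Of the 18 members with several measured sets, 9 had sets on both sides of 0, where 48.6% of 6122 genes did. These were ITGB5 and 8 of 13 collagens: COL1A1, COL4A1, COL5A3, COL6A1, COL11A2, COL18A1, COL26A1 and COL27A1. In COL6A1 and COL26A1 the lower sets passed the floor at 0 h alone, so that their sign follows from the filter. Over sets above the floor on both arrays, 7 of 15 members lay on both sides of 0, where 47.7% of 5791 genes did. The pooled SD between sets of a gene was 0.28 for the members and 0.16 for all genes, with 0.12 over probe sets at least 4 times above the floor. The SD of the members includes the sets of COL1A1, which lie at -0.36 and 0.94. Of the 40 members, 30 had a difference smaller in size than 0.28 and 19 had one smaller than 0.16. This scatter between probe sets is not the error between cultures or arrays. Some members had several measured sets, all above the floor on both arrays and on 1 side of 0 within a width of 0.11. These were ITGA6, ITGB1, LAMC1, COL5A2 and COL7A1. Over all 62 measured probe sets of members, 35 were higher and 27 lower, and 2 (COL9A3 and 1 of COL1A1) were at least 1.5-fold higher against 0.761% of all measured probe sets with 1 gene. None was 1.5-fold lower, where 0.18% of all were.

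**Figure D3:**
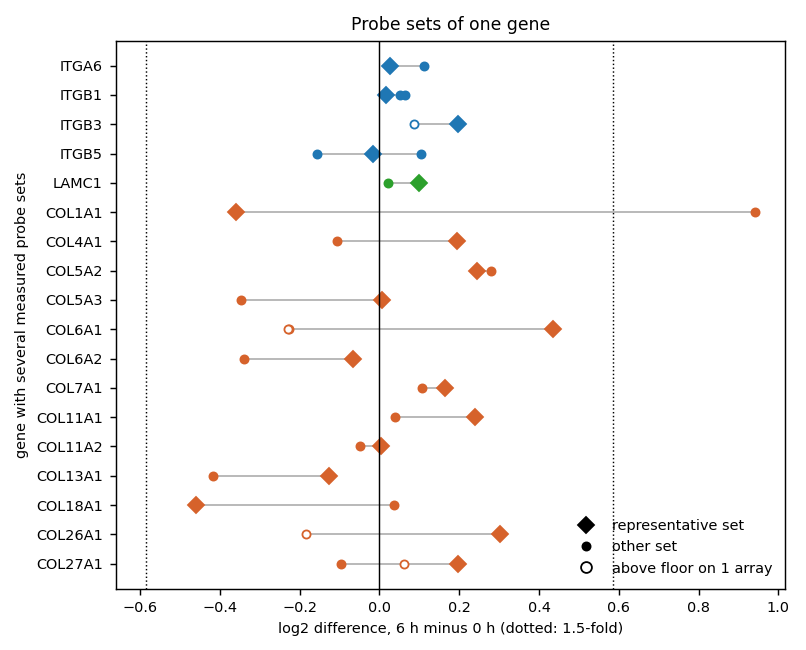
Log2 difference of each measured probe set of the 18 members with several, with diamonds for the representative set, circles for the others and open circles for sets above the floor on 1 array. The sets of ITGB1 lie between 0.02 and 0.06 and those of COL5A2 at 0.24 and 0.28, while those of COL1A1 span -0.36 to 0.94.

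Probe sets also disagreed on whether a chain was measured at all. Of 31 measured members with several probe sets on the array, 21 had at least 1 set below the floor on both arrays, or 67.7%, where 53.1% of 8167 such genes did. In all, 133 of the 195 member probe sets were below it, or 68.2%, where 43.4% of all probe sets with 1 gene were. The representative set of 20 of the 40 members has an identifier ending in _s_at or _x_at, which the array maker gives to sets whose probes can match several transcripts.

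Genes that work with these chains were described by 5 lists. For reference, 54.3% of all measured genes were higher at 6 h (median 0.02), 0.75% at least 1.5-fold higher and 0.182% at least 1.5-fold lower. Of 20 measured genes of integrin activation and focal adhesions, the median difference was 0.06, 14 being higher and 6 lower, and 0 were 1.5-fold apart. The 3 with the largest differences were the kindlin FERMT1 (48.3 to 65.6, close to the floor), the focal adhesion kinase PTK2 (1840 to 2269, with 4 sets from 0.14 to 0.30) and VCL, the actin linker vinculin (2007 to 2470, 0.30). Of 19 collagen-processing genes, 8 were higher and 11 lower (median -0.03). SERPINH1, the collagen chaperone of the endoplasmic reticulum, went from 1216 to 906.3 (-0.42), the lysyl hydroxylase PLOD2 from 192.3 to 247.5 (0.36 and 0.35 on 2 sets) and the prolyl hydroxylase P3H2 from 69.7 to 54.7.

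The 11 other basement membrane and matrix genes had a median difference of 0.21, 8 higher and 3 lower. FREM2, a basement membrane protein of the Fraser complex, went from 117.6 to 190.2 (0.69), the fibulin FBLN2 from 79.9 to 122.6 (0.62) and the microfibril protein FBN1 from 62.0 to 83.3 (0.43), each on 1 measured set. The first 2 were past 1.5-fold. Of 7 matrix receptors outside the integrins, 2 were higher and 5 lower (median -0.05). The collagen receptor kinase DDR2 went from 54.5 to 85.2 (0.65), with 0.08 on its other set, BCAM, a receptor for LAMA5-containing laminins, from 70.6 to 84.5, and CD47 from 902.0 to 824.5, with 6 sets from -0.19 to 0.08.

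The 6 integrin alpha chains whose symbols the choice did not cover had 2 measured genes. ITGAE, which pairs with ITGB7, was at 3184 and 3133, and the platelet chain ITGA2B was at 149.5 and 200.9 with 3 sets from -0.17 to 0.43. The leukocyte chains ITGAL, ITGAM, ITGAX and ITGAD were below the floor.

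**Figure D4:**
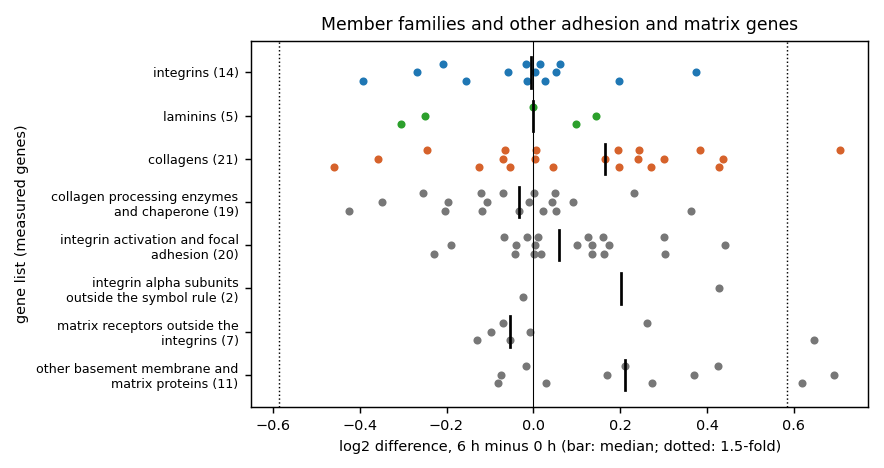
Log2 differences (6 h minus 0 h) of the measured genes of the 3 member families (coloured) and of 5 lists of related genes (grey), 1 point per gene, with the median as a bar and 1.5-fold as dotted lines. Medians are 0.17 for collagens and -0.005 for integrins (0.19 and 0.01 over sets above the floor on both arrays), and the points past a dotted line are COL9A3, DDR2, FBLN2 and FREM2.

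The labels call the cells type II alveolar cells. Of 8 markers of that type with a probe set of their own, 5 were above the floor (SFTPB, SFTPC, ABCA3, NAPSA and NKX2-1). Of all genes on the array, 64.1% were. None of the 5 was 4 times above the floor on both arrays, where 63.7% of all measured genes were. ABCA3 was at 173.4 and 207.9, past that limit at 6 h alone. SFTPD, LAMP3 and SLC34A2 were below the floor on both arrays. Of 6 epithelial markers, KRT7, KRT8 and KRT18 were above the floor, none 4 times above it, while EPCAM, CDH1 and KRT19 were below it. Markers of other cells were low too: 2 of 6 fibroblast, 1 of 5 endothelial and 0 of 4 leukocyte genes were measured, and none was 4 times above the floor. The summed intensity of each gene's highest set at 0 h and 6 h was 574.2 and 616.1 for type II and 324 and 294 for epithelial markers. It was 205.7 and 185.5 for fibroblast, 160.2 and 144.1 for endothelial and 100.3 and 90.8 for leukocyte markers. The part of other cells in the differences was not tested.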

How the data were processed

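The authors deposited 1 linear intensity per probe set and array (54675 probe sets). Per the submitters' processing notes the tool was MAS5. Its version and settings, and any scaling between arrays, are not given in the sources used here. Trimmed means (2% off each end) were 256.4 and 262.1 at 0 h and 6 h. A scaling difference would move all genes together, and MAS5 subtracts background, so dim values are noisy. Probe sets were named from the platform annotation, and symbols were updated by Entrez identifier (41097 with 1 gene, 1801 with several, 11777 with none). Array control sets were named for no gene. The floor was the 50th percentile of the pooled values. Groups were the 0 h and 6 h array, and no test was possible.

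Every measured member was named. Of each related list, the 3 genes with the largest absolute difference were named. Members and lists were chosen with earlier results of these data known. Alternatives were floors at the 40th and 60th percentile, no floor with log2(value + 16), centring, quantile normalization, loess (span 0.3), the median of a gene's sets, no _x_at or _s_at sets, and sets above the floor on both arrays. Steps ran in Python 3.11.15 with pandas 2.3.3 and were tested on simulated data.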

Additional observations from a re-analysis of the deposited data

How the results depend on the processing

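The count of 40 measured members was 24 with the 60th percentile as floor and 24 without _x_at and _s_at probe sets. The median difference of 0.01 was then 0.080 and 0.057 (0.024 and 0.023 over all genes). It was 0.098 over the 13 genes at least 4 times above the floor, a limit chosen after seeing the data (0.027 over all genes past it). The count at least 1.5-fold higher was 0 without _x_at and _s_at sets, because COL9A3 has no other set, and 1 under the other 8 alternatives. The count at least 1.5-fold lower was 0 under all 9. The difference of 8 of the 40 genes changed sign under at least 1 alternative: COL1A1, COL5A3, COL6A1, COL11A2, ITGA2, ITGA3, ITGA6 and ITGB1. With the median of a gene's sets COL1A1 was at 0.29 and COL6A1 at -0.23, the latter through 2 sets above the floor at 0 h alone. COL6A1 stayed at 0.44 over sets above the floor on both arrays. No alternative that leaves out a sample could be run with 1 array per group. No paired analysis was possible because each group holds 1 array. Intensities near 45.4 are not separated from background, which limits the 17 members under 2 times the floor.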
